A study of Mus musculus with 14 samples.

Results

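The RecQ helicases are represented on this mouse array by 9 probe sets of 5 genes, Wrn, Blm, Recql, Recql4 and Recql5, out of 22626 probe sets and 12393 named genes. Members were taken by gene symbol from the platform annotation, and every probe set of a member is described. Wrn has 3 probe sets, Recql has 3, and the others have 1 each. The family was chosen by the log2 intensity of Wrn, which lay low in a comparison of these same arrays, Instigator against Matrigel. Member values there are therefore given as a description without a test.

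RNA came from marrow cells of mice, sorted as Sca1+ and cKit-, on 14 arrays in 3 groups. The mice carried Matrigel, a basement membrane extract without tumour cells (4 arrays), a BPLER tumour called Instigator (5 arrays), or a PC3 tumour of matched size called Non-instigator (5 arrays). An instigating tumour promotes the growth of otherwise indolent tumour cells elsewhere in the same host. BPLER and PC3 are human lines, transformed breast epithelium and prostate carcinoma. The labels give no host strain, age or sex and no batch, and do not tie arrays to animals, so errors and p-values measure spread among these samples that may be technical only. The free-text description of Instigator 5 names the PC3 tumour, against its title and source label, and results that rest on that array are given both ways.

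RecQ helicases unwind DNA at stalled replication forks, recombination intermediates and telomeres, and are often called guardians of the genome. In people, loss of WRN causes Werner syndrome, a premature ageing disorder, loss of BLM causes Bloom syndrome with its excess of sister chromatid exchange, and RECQL4 is mutated in Rothmund-Thomson syndrome. Blood-forming marrow divides rapidly, and Bloom syndrome in particular carries a high risk of leukaemia and lymphoma.

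Values are log2 RMA intensities, where a difference of 1 is a doubling, and the number of arrays limits their precision. Arrays had median intensities from 119 to 145. A pair of arrays, Instigator 4 and Matrigel 3, differed from the rest. The beta-actin control read lower at its 5′ than at its 3′ end by -3.41 on Instigator 4 and by -0.81 to -0.51 on the other 13. The log2 median was 7.18 on Matrigel 3 and 6.90 to 7.01 on the others. Transcript of Kit, which the sort selects against at the protein level, was read at a brighter and a dimmer probe set. The brighter one had group means of 7.52 (Matrigel), 7.58 (Instigator) and 7.37 (Non-instigator), above the median of all probe sets (6.99). Kit means at the dimmer set were 5.15, 4.88 and 4.84. The other marker of the sort, Sca1, is not analysed here.

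Wrn encodes the Werner helicase, the RecQ member that also carries an exonuclease and works at telomeres. At its brightest probe set, 1425074_at, Wrn was lower in every Instigator array than in any other array. The Matrigel arrays read 9.05, 9.05, 8.95 and 8.93, the Instigator arrays 8.56, 8.73, 8.46, 8.49 and 8.74, and the Non-instigator arrays 8.88, 8.83, 9.01, 8.99 and 8.79. The lowest Matrigel array lay 0.19 above the highest Instigator array, and the lowest Non-instigator array only 0.05 above it. Of all 22626 probe sets, 0.128% were lower in the 5 Instigator arrays than in all the 9 others, a figure given beside Wrn without weight, since Wrn was chosen for its place in one of these comparisons.

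That Wrn set had group means of 8.99 ± 0.06 (Matrigel, SD, n = 4), 8.59 ± 0.13 (Instigator, SD, n = 5) and 8.90 ± 0.10 (Non-instigator, SD, n = 5). Instigator minus Matrigel was -0.40 (SE 0.08, 95% confidence interval -0.58 to -0.22, 1.32-fold lower). Wrn was chosen on this comparison, and the interval takes no account of that choice, so it is no test. Against Non-instigator the Instigator difference was -0.31 (SE 0.08, 95% confidence interval -0.47 to -0.14, 1.24-fold lower), with a limma p adjusted over all probe sets of 0.813. That second comparison uses the same Instigator arrays and is no independent check of the first. Non-instigator differed from Matrigel by -0.09 (SE 0.08, 95% confidence interval -0.27 to 0.08, limma adjusted p = 0.986), within the spread of the arrays.

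The Wrn difference was nearly as large without the arrays that stood apart. Without Instigator 4 the difference from Matrigel was -0.37, and without Instigator 4 and Matrigel 3 it was -0.39. With Instigator 5 counted as Non-instigator, the differences were -0.44 from Matrigel and -0.31 from Non-instigator. The remaining 4 Instigator arrays then topped out at 8.73 (Instigator 2) just under 8.74 on Instigator 5, a gap of 0.01.

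The other Wrn probe sets, 1450163_a_at and 1425982_a_at, did not follow the bright one. Both were dim, below the median of all probe sets, and their groups overlapped in every comparison. The set 1450163_a_at read 6.0, 5.89, 5.52 and 6.10 in Matrigel, 6.12, 6.21, 6.03, 5.86 and 6.18 in Instigator, and 6.12, 5.97, 6.06, 6.04 and 6.05 in Non-instigator arrays. It was higher, not lower, in Instigator than in Matrigel arrays, by 0.20 (SE 0.11, 95% confidence interval -0.03 to 0.44). Matrigel 3 gave the lowest value of the 14, and without that array the difference was 0.09.

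The set 1425982_a_at read 5.79, 5.85, 6.36 and 5.86 in Matrigel, 5.78, 5.83, 5.95, 5.70 and 5.93 in Instigator, and 5.72, 5.91, 5.85, 5.85 and 5.95 in Non-instigator arrays. Its Instigator minus Matrigel difference was -0.13 (SE 0.11, 95% confidence interval -0.36 to 0.11), and 0.00 without Matrigel 3, which held the highest value. Between tumour groups both dim sets differed by little, 0.03 (95% confidence interval -0.19 to 0.25, limma adjusted p = 0.961) and -0.02 (95% confidence interval -0.24 to 0.20, limma adjusted p = 0.976). With the mean of the 3 sets in place of the brightest, Wrn differed by -0.11 (SE 0.07) from Matrigel and by -0.10 (SE 0.07) from Non-instigator, so the lower Wrn value is that of 1 probe set.

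**Figure D1:**
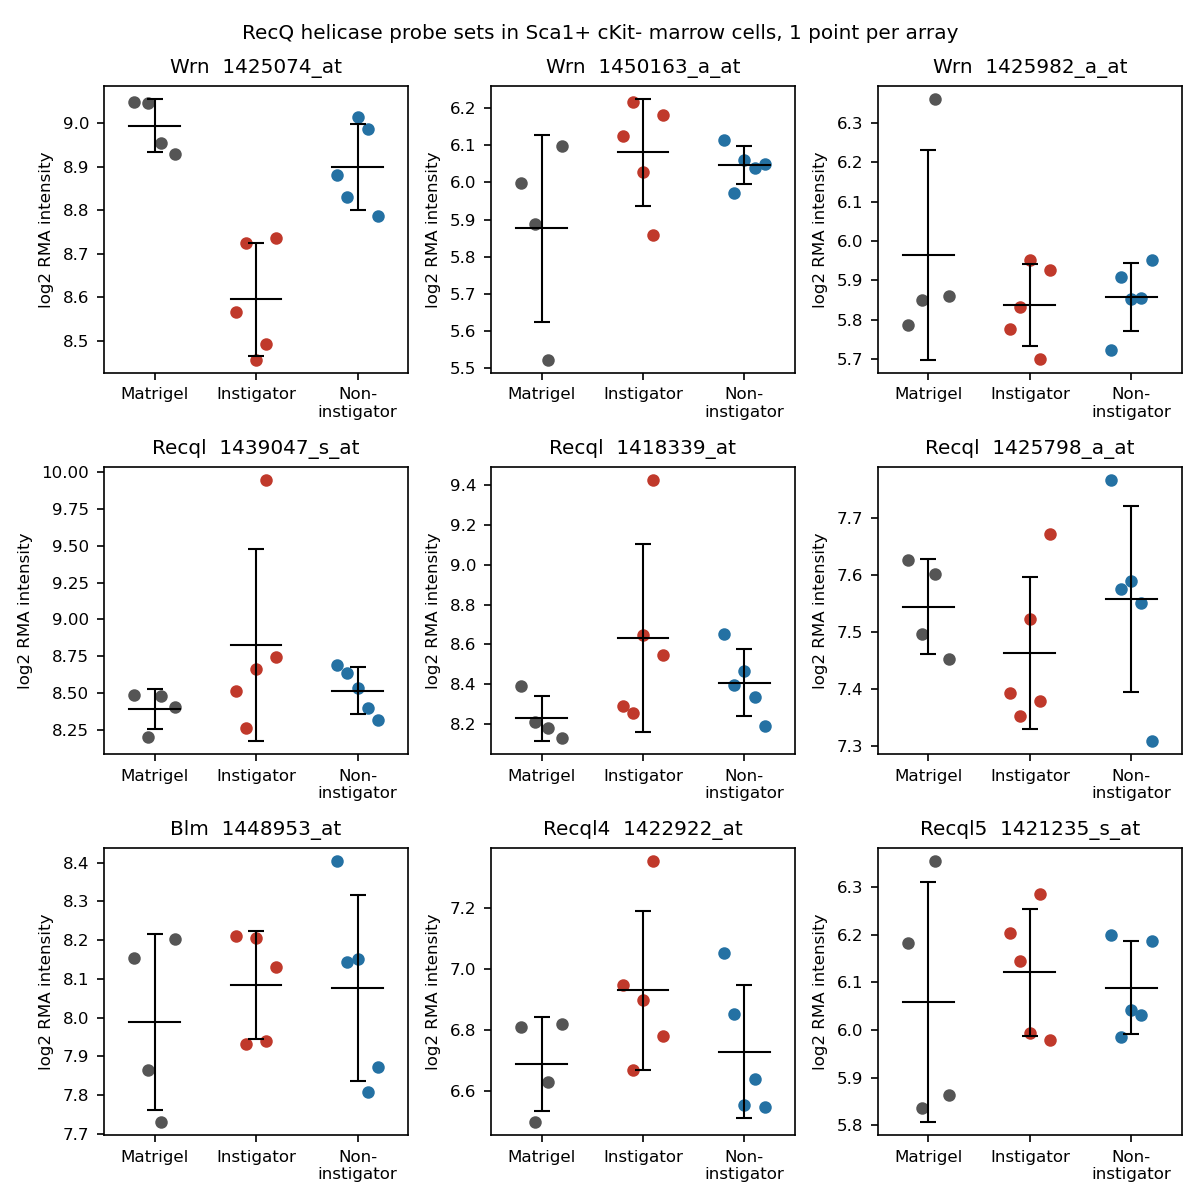
Log2 RMA intensity (vertical axes, scaled per panel) of the 9 RecQ probe sets in the Matrigel (n = 4), Instigator (n = 5) and Non-instigator (n = 5) arrays, with 1 point per array and black bars at the mean ± SD. At Wrn 1425074_at the Instigator points, 8.46 to 8.74, lie below all others, and in the other 8 panels the groups overlap.

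The Wrn sets were also compared array by array, as deviations from their group means over the 14 arrays, in 6 correlations among sets of the same gene (permutation p-values, two-sided, Benjamini-Hochberg over the 6). The bright set and 1450163_a_at had r = 0.40 (permutation p = 0.162, adjusted 0.324) and rho = 0.54 (permutation p = 0.0501, adjusted 0.1). Without the 2 arrays farthest from the median, r was 0.26. The bright set and 1425982_a_at had r = -0.14 (permutation p = 0.66, adjusted 0.66) and rho = -0.19 (permutation p = 0.52, adjusted 0.52), with r = -0.27 without the 2 farthest arrays. The dim sets ran against each other, with r = -0.59 (permutation p = 0.0328, adjusted 0.0985) and rho = -0.42 (permutation p = 0.135, adjusted 0.162), and r = -0.52 without Matrigel 3 and Instigator 4. No pair of Wrn sets passed after adjustment.

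Recql encodes RECQ1, an abundant RecQ helicase that works in the restart of stalled forks. Its 3 probe sets all lay above the median of all probe sets. The 2 brightest, called the bright sets here, varied together, and both were highest on Instigator 4. The set 1439047_s_at read 8.49, 8.20, 8.48 and 8.41 in Matrigel, 8.51, 8.26, 8.67, 9.95 and 8.74 in Instigator, and 8.69, 8.64, 8.53, 8.40 and 8.31 in Non-instigator arrays. The set 1418339_at read 8.39, 8.21, 8.18 and 8.13 in Matrigel, 8.29, 8.26, 8.65, 9.43 and 8.54 in Instigator, and 8.65, 8.39, 8.47, 8.34 and 8.19 in Non-instigator arrays. On both, Instigator 4 lay far above the other 13 arrays.

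The Recql differences between Instigator and Matrigel were 0.43 (SE 0.25) at 1439047_s_at and 0.40 (SE 0.19) at 1418339_at. Without Instigator 4 they were 0.15 (SE 0.12) and 0.20 (SE 0.11). Between tumour groups the differences were 0.31 (SE 0.23, limma adjusted p = 0.822) and 0.22 (SE 0.18, limma adjusted p = 0.828), and 0.03 at each set without Instigator 4. Non-instigator lay above Matrigel by 0.12 (SE 0.25) and 0.18 (SE 0.19), each with a limma adjusted p of 0.986. The low 5′ control signal of Instigator 4 occurs on the same array, and its part in the Recql values was not tested.

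The remaining Recql set, 1425798_a_at, showed no high value on Instigator 4. It read 7.63, 7.50, 7.60 and 7.45 in Matrigel, 7.39, 7.35, 7.52, 7.38 and 7.67 in Instigator, and 7.77, 7.58, 7.59, 7.55 and 7.31 in Non-instigator arrays. Its differences were -0.08 (SE 0.10) for Instigator and 0.01 (SE 0.10) for Non-instigator against Matrigel, and -0.09 (SE 0.09, limma adjusted p = 0.856) between the tumour groups. Over the 14 arrays the bright Recql sets correlated at r = 0.95 (permutation p = 1e-05, the smallest that the resamples can give, adjusted 6e-05) and rho = 0.82 (permutation p = 0.00068, adjusted 0.00408), with r = 0.76 without Instigator 4 and Instigator 2. The set 1425798_a_at correlated with 1439047_s_at at r = 0.12 (permutation p = 0.66, adjusted 0.66) and rho = 0.49 (permutation p = 0.0816, adjusted 0.122), and with 1418339_at at r = 0.24 (permutation p = 0.405, adjusted 0.608) and rho = 0.56 (permutation p = 0.0405, adjusted 0.1). Without Instigator 4 and Instigator 2 these r were 0.54 and 0.65. So 1425798_a_at ran closer to the bright sets when Instigator 4 and Instigator 2 were left out, while the bright sets' own r was lower there.

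**Figure D2:**
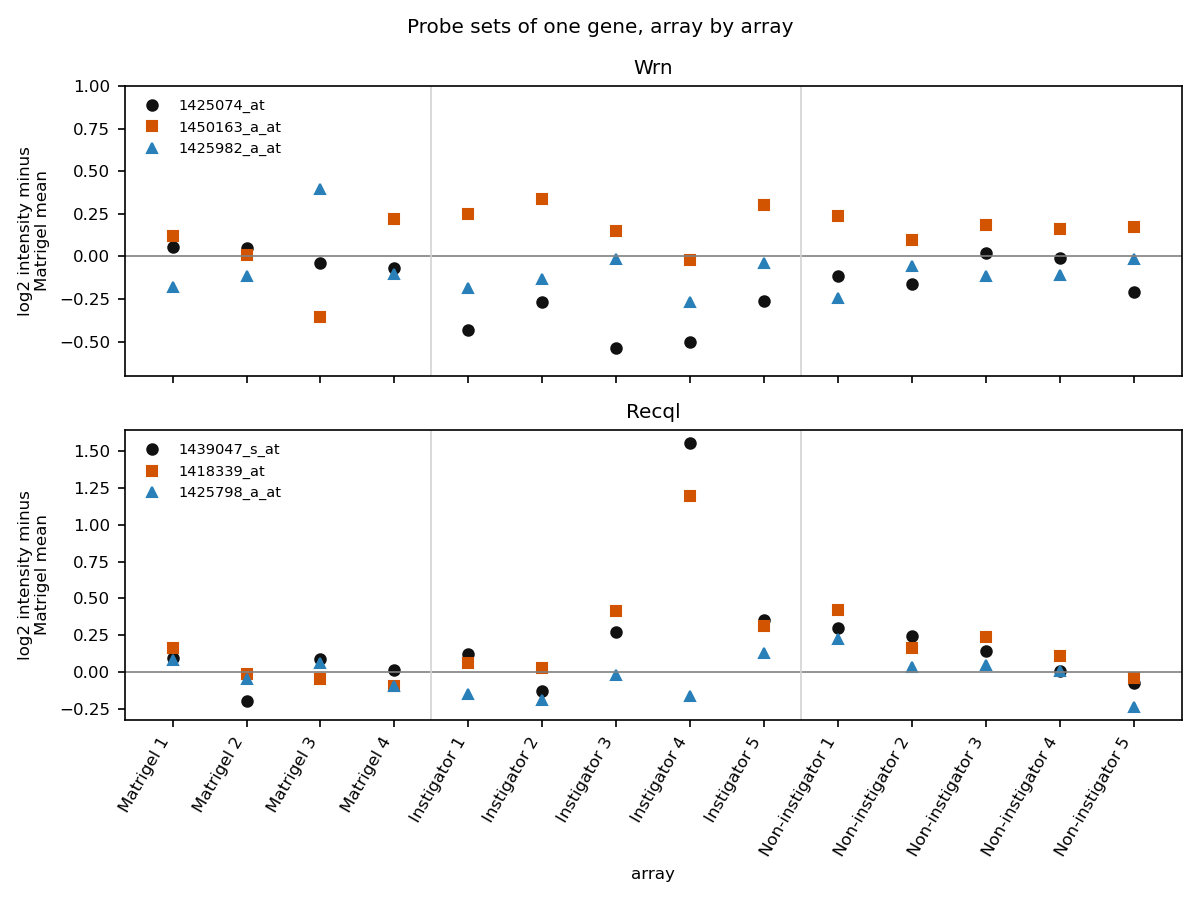
Each probe set of Wrn (top) and Recql (bottom) on the 14 arrays, as log2 intensity minus that set's Matrigel mean, with grey lines between the groups. Black Wrn points lie below 0 on all 5 Instigator arrays, and orange Wrn points on Instigator 4 alone of these. Blue Wrn points lie below 0 on all Instigator and all Non-instigator arrays. The Matrigel mean subtracted from the blue set is raised by Matrigel 3, at 6.36 on the intensity scale. On Instigator 4 the black and orange Recql sets read 9.95 and 9.43 on the intensity scale while the blue set read 7.38.

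Blm encodes the Bloom helicase, which with topoisomerase III alpha and the RMI proteins dissolves double Holliday junctions. Its probe set 1448953_at read 8.15, 7.87, 7.73 and 8.20 in Matrigel, 8.21, 7.93, 8.21, 7.94 and 8.13 in Instigator, and 8.40, 8.14, 8.15, 7.81 and 7.87 in Non-instigator arrays. The groups overlapped almost completely, with Matrigel 3 lowest and Non-instigator 1 highest. Instigator differed from Matrigel by 0.10 (SE 0.13, 95% confidence interval -0.19 to 0.38) and from Non-instigator by 0.01 (SE 0.13, 95% confidence interval -0.26 to 0.27, limma adjusted p = 0.992). Non-instigator differed from Matrigel by 0.09 (SE 0.13, limma adjusted p = 0.986).

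Recql4 encodes the helicase whose amino-terminal part takes part in the start of DNA replication. Its set 1422922_at was dim, reading 6.81, 6.50, 6.63 and 6.82 in Matrigel, 6.95, 6.67, 6.90, 7.36 and 6.78 in Instigator, and 7.05, 6.85, 6.55, 6.64 and 6.55 in Non-instigator arrays. Instigator 4 was the highest of the 14, and the groups overlapped. Instigator differed from Matrigel by 0.24 (SE 0.14, 95% confidence interval -0.06 to 0.54) and from Non-instigator by 0.20 (SE 0.13, 95% confidence interval -0.08 to 0.49, limma adjusted p = 0.813). Without Instigator 4 these were 0.14 and 0.10. Non-instigator differed from Matrigel by 0.04 (SE 0.14, limma adjusted p = 0.989).

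Recql5 encodes the member that binds RNA polymerase II. Its set 1421235_s_at was dim as well, reading 6.18, 5.84, 6.36 and 5.86 in Matrigel, 6.20, 6.14, 5.99, 6.29 and 5.98 in Instigator, and 6.20, 5.99, 6.04, 6.03 and 6.19 in Non-instigator arrays. The Matrigel arrays alone spanned the Instigator and Non-instigator ranges. The 3 differences were 0.06 (SE 0.11) for Instigator minus Matrigel, 0.03 (SE 0.11, limma adjusted p = 0.991) for Non-instigator minus Matrigel and 0.03 (SE 0.11, limma adjusted p = 0.964) between tumour groups.

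Over the family, limma called 0 of 9 probe sets in each of the 3 comparisons, where it called 0% of all 22626 probe sets. At an unadjusted p under 0.05, 1 of 9 passed in Instigator minus Matrigel, where 10.3% of all probe sets did. That count comes from the comparison that chose Wrn, and nothing is read from it. In Instigator minus Non-instigator 1 of 9 passed, again Wrn 1425074_at, against 5.6% of all probe sets. In Non-instigator minus Matrigel 0 of 9 passed, against 2.11%. Groups did not overlap for 1 of 9 members in Instigator minus Matrigel and 1 of 9 between tumour groups. In both cases it was Wrn, lying lower, against 1.68% and 0.446% of all probe sets lower without overlap. In Non-instigator minus Matrigel 0 of 9 were lower or higher without overlap, where 0.61% of all probe sets were lower. The share higher without overlap was not counted over all probe sets. The median difference over the 9 was 0.10, 0.04 and 0.03 in Instigator minus Matrigel, Non-instigator minus Matrigel and Instigator minus Non-instigator, beside -0.03, -0.04 and 0.02 over all probe sets. Apart from Wrn, 5 of 6 member probe sets lay higher in Instigator than in Matrigel arrays. Against Non-instigator arrays 5 of 6 lay higher in Instigator, and 6 of 6 lay higher in Non-instigator than in Matrigel arrays, by at most 0.18. All genes, each by its brightest set, split 5690 higher and 6703 lower, 7209 and 5184, and 4747 and 7646 in these 3 comparisons. Recql gives 3 of the 6 sets, 2 of them highest on Instigator 4, so the counts are not 6 separate readings.

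**Figure D3:**
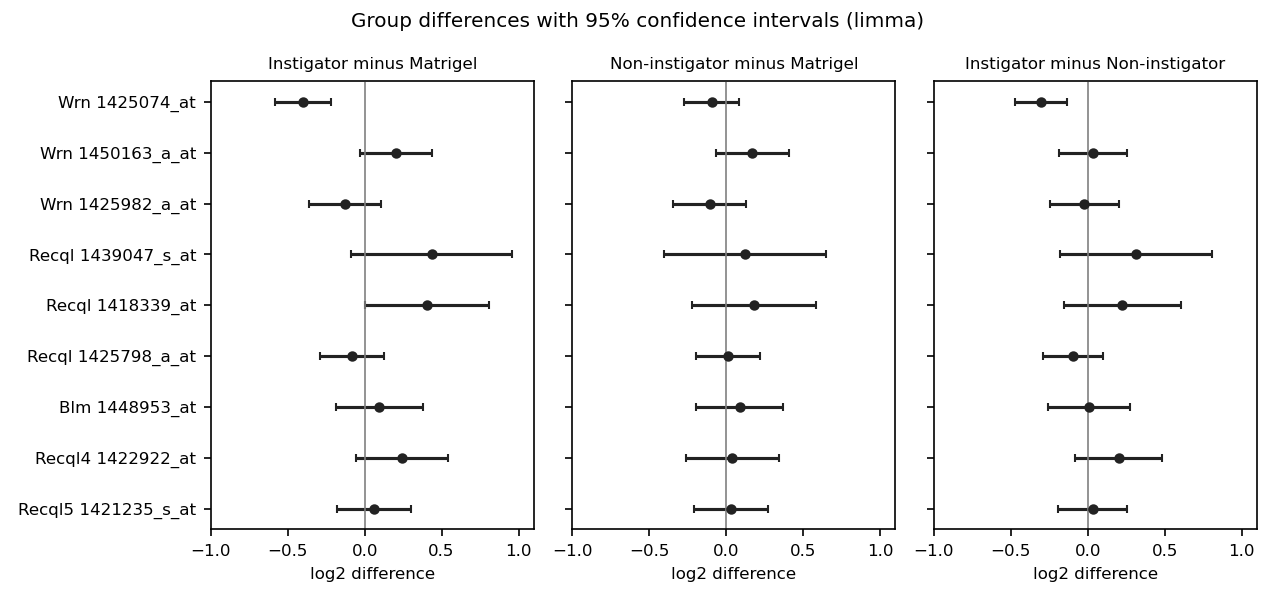
Log2 differences between groups (horizontal axis) for the 9 RecQ probe sets in the 3 comparisons, with limma's 95% confidence intervals as bars. Wrn 1425074_at lies at -0.40 in Instigator minus Matrigel, the comparison it was chosen on, and its bar there takes no account of that choice. In Instigator minus Non-instigator it lies at -0.31 (interval -0.47 to -0.14). No set passed after adjustment over all probe sets.

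Several RecQ helicases are made in cells that replicate their DNA, so the members were set beside genes of the replicative helicase (CMG, built from MCM, CDC45 and GINS) and of origin firing. Of 20 such genes 17 are measured. On each array the deviation of their mean from its group mean was compared with that of each member's brightest set, in 5 correlations over 14 arrays (permutation p-values, two-sided, Benjamini-Hochberg over the 5). Recql4 followed the list most closely, with r = 0.83 (permutation p = 0.00021, adjusted 0.00105) and rho = 0.82 (permutation p = 0.0005, adjusted 0.0025). Its r was 0.84 without Non-instigator 1 and Non-instigator 4, the arrays farthest from the list's median, and 0.88 without Instigator 4 and Matrigel 3. How many of all genes followed the list as closely was not counted, so these values do not set the RecQ members apart.

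Blm varied with the same list at r = 0.63 (permutation p = 0.0151, adjusted 0.0378) and rho = 0.60 (permutation p = 0.0248, adjusted 0.0413). These p-values lean small, since the permutations did not count the group means removed, so Blm is not read as passing. Its r was 0.34 without Non-instigator 1 and Non-instigator 4, and 0.89 without Instigator 4 and Matrigel 3. The Blm relation thus depended strongly on which samples were kept. Recql had r = 0.53 (permutation p = 0.0537, adjusted 0.0895) and rho = 0.67 (permutation p = 0.00994, adjusted 0.0248). With the same limit on p, it was below 0.05 by rank alone, and its r was 0.62 without the 2 farthest arrays. Recql5 had r = 0.43 (permutation p = 0.127, adjusted 0.133) and rho = 0.52 (permutation p = 0.0599, adjusted 0.0749), with r = 0.39 without them. Wrn had the opposite sign, r = -0.42 (permutation p = 0.133, adjusted 0.133) and rho = -0.29 (permutation p = 0.312, adjusted 0.312), with r = -0.46 without them, and did not pass.

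**Figure D4:**
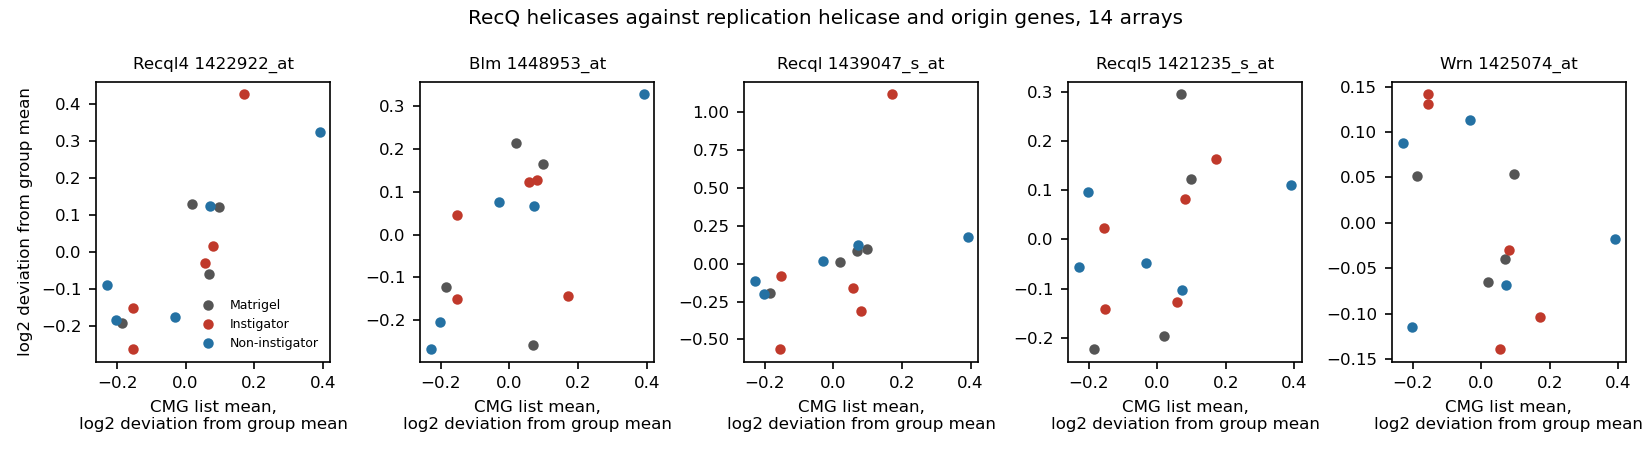
Deviation of each member's brightest probe set from its group mean (vertical axes, log2, scaled per panel) against the deviation of the mean of 17 replicative helicase and origin genes (horizontal axis, log2), 1 point per array, coloured by group. Recql4 climbs with the list (r = 0.83), Blm and Recql less tightly (0.63 and 0.53), and Wrn slopes the other way (-0.42).

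Of the members that varied with these genes, within the limits above, Blm and Recql have promoter sequences in the RefSeq table (build GRCm38.p6). The 250 bases upstream of a start site are shown because of these genes' r with the list (0.63 and 0.53). Blm is not read as passing and Recql was below 0.05 by rank alone, so the choice of windows rests on no firm relation. The table has 1 window for Blm and 2 overlapping ones for Recql, of which the first listed is printed. Capitals mark matches to CCAAT on either strand, the core of the box bound by NF-Y, which is common in promoters of cell cycle genes. The Blm window is chr7:80534999-80535248 and the printed Recql window chr6:142387088-142387337, both on the minus strand and written 5′ to 3′.
Blm: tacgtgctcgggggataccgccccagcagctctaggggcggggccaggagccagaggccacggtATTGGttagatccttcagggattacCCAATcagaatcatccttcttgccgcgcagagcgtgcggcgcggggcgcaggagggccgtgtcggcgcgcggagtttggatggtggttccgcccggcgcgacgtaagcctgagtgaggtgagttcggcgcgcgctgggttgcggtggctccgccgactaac
Recql: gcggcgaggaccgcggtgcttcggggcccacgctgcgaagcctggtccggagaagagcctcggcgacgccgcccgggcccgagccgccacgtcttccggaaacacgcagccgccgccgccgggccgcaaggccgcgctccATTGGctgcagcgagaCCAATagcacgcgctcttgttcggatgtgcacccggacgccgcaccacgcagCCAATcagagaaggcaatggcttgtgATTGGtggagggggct
The Blm window holds 2 matches and the printed Recql window 4. The other Recql window, chr6:142386943-142387192, holds 3. Over all 32851 windows of this length, 33.8% hold at least 1 match, 10.1% at least 2, 2.79% at least 3 and 0.84% at least 4. A loosened form of the site bound by E2F factors, TTTNNCGC on either strand, has 0 matches in both printed windows and 1 in the other Recql window, and 4.28% of all windows hold one. The Recql5 window has 2 CCAAT matches and 1 TTTNNCGC match. These are matches of letters in fixed windows and say nothing of binding.

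Partner genes were described from 8 lists, of which 90 of 111 entries are measured, each by its brightest probe set. Exo1 is entered in the WRN partner list and again in the end resection list. Limma called 0 of these genes in each comparison, where it also called 0 of all 12393 genes. The lists and their sizes follow, with all genes split 5690 higher and 6703 lower in Instigator minus Matrigel (median -0.02) and 7209 higher and 5184 lower in Instigator minus Non-instigator (median 0.03). After centring of the arrays on their medians these splits were 8014 and 4379 (median 0.06) and 7953 and 4440 (median 0.05), so a list's split is read against the split on its own scale. Without Instigator 4 and Matrigel 3 they were 7316 and 5077 (median 0.03) and 7176 and 5217 (median 0.02). Quantile normalization gave 6986 and 5407 (median 0.03) and 7173 and 5220 (median 0.02).

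Genes whose products bind WRN were all measured, 14 of 14. In Instigator minus Matrigel 8 were higher and 6 lower (median 0.06), or 11 and 3 after centring, with 4 of 14 at an unadjusted p under 0.05, beside 8.8% of all genes. The shelterin genes Terf2 and Terf1, whose proteins coat telomeres and bind WRN there, were lower along with Wrn. Terf2 was at 8.02 ± 0.11 (Instigator, SD, n = 5) against 8.31 ± 0.14 (Matrigel, SD, n = 4), a difference of -0.29 (SE 0.09). Terf1 was at 8.31 ± 0.20 (SD, n = 5) against 8.64 ± 0.19 (SD, n = 4), a difference of -0.33 (SE 0.11). Parp1, the poly(ADP-ribose) polymerase that senses DNA breaks, went the other way, at 11.24 ± 0.10 (SD, n = 5) against 10.95 ± 0.23 (SD, n = 4), a difference of 0.30 (SE 0.10). Each of these 3 had a limma adjusted p of 0.439.

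Between tumour groups the WRN partners split 9 higher and 5 lower (median 0.10), but 7 and 7 (median 0.02) without Instigator 4 and Matrigel 3. Against Matrigel they then split 11 and 3, with a median of 0.01. Terf2 differed by -0.26 (SE 0.08) and Parp1 by 0.29 (SE 0.10). Wrnip1, the ATPase named for its binding to WRN, differed by -0.23 (SE 0.10), from 8.39 ± 0.16 (SD, n = 5) in Non-instigator to 8.16 ± 0.19 (SD, n = 5) in Instigator arrays. Their limma adjusted p was 0.813. In Non-instigator minus Matrigel the list split 7 and 7 (median 0.00), and Wrnip1 was the 1 gene of 14 at an unadjusted p under 0.05, beside 1.96% of all genes. It differed by 0.23 (SE 0.11, limma adjusted p = 0.986). Terf1 differed there by -0.14 (SE 0.11, limma adjusted p = 0.986).

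The replicative helicase and origin list lay higher in Instigator arrays, with 14 of 17 genes above Matrigel (median 0.13) and 16 of 17 above Non-instigator (median 0.15), and 8 of 17 higher in Non-instigator than in Matrigel arrays (median -0.01). The count above Matrigel was 14 after quantile normalization, 16 after centring of the arrays and 16 without Instigator 4 and Matrigel 3. Cdt1, which loads MCM onto origins, differed from Matrigel by 0.68 (SE 0.18, limma adjusted p = 0.439), and Cdc6, its loading partner, by 0.52 (SE 0.22, limma adjusted p = 0.453). The MCM subunit gene Mcm2 differed from Non-instigator by 0.61 (SE 0.21, limma adjusted p = 0.813).

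Of the BLM complex and its recombination partners 7 of 11 are measured. In Instigator arrays 5 of 7 were above Matrigel (median 0.09) and 6 of 7 above Non-instigator (median 0.20), the latter median being 0.07 without Instigator 4 and Matrigel 3. Topbp1, the checkpoint scaffold that binds BLM, differed from Non-instigator by 0.24 (SE 0.16, limma adjusted p = 0.813). Replication protein A and end resection genes (8 of 9 measured) split 7 higher and 1 lower than Matrigel (median 0.11) and 6 and 2 against Non-instigator (median 0.14, and 0.03 without the 2 arrays). Dna2, a nuclease and helicase that resects DNA ends together with BLM or WRN, differed from Non-instigator by 0.38 (SE 0.15, limma adjusted p = 0.813).

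Helicases of genome maintenance outside the RecQ family (10 of 17 measured) split 5 and 5 in both Instigator comparisons, with medians of 0.03 and 0.01, and 4 and 6 in both without Instigator 4 and Matrigel 3, with medians of -0.04 and -0.05. Atrx, a chromatin remodeller of repeats and telomeres, was low in Instigator arrays as Wrn was. It differed by -0.44 (SE 0.18, limma adjusted p = 0.443) from Matrigel and by -0.48 (SE 0.17, limma adjusted p = 0.813) from Non-instigator. Structure-specific nuclease genes (6 of 10 measured) split 4 and 2 in both, with medians of 0.09 and 0.14, the latter being 0.05 without those arrays. Eme1, the partner of the MUS81 nuclease, differed from Matrigel by 0.49 (SE 0.24, limma adjusted p = 0.507).

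Mitosis and cycling genes (15 of 16 measured) split 11 higher and 4 lower than Matrigel (median 0.10) and 10 and 5 against Non-instigator (median 0.08). Foxm1, a transcription factor of the cell cycle read by a set whose probes may match further transcripts, differed from Matrigel by 0.23 (SE 0.08, limma adjusted p = 0.442). Checkpoint and p53 target genes (13 of 14 measured) split 4 higher and 9 lower than Matrigel (median -0.06), but 7 and 6 with quantile normalization and 8 and 5 with centring, and the median was -0.02 without Instigator 4 and Matrigel 3. Against Non-instigator they split 4 and 9 (median -0.12). Atm, the kinase that signals double-strand breaks, differed there by -0.33 (SE 0.12, limma adjusted p = 0.813).

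The genes whose profile over the 14 arrays was most like that of Wrn 1425074_at, out of 12388 other genes, were Srsf2 (r = 0.93), Gm17546 (0.92), Top1 (0.91), Clk4 (0.89) and Entr1 (0.89). Srsf2 is a splicing factor of the SR class, Clk4 a kinase of SR proteins and Top1 the DNA topoisomerase I. Without Instigator 4 and Matrigel 3 their r was 0.92, 0.90, 0.89, 0.89 and 0.86, which kept each within the 15 highest of all genes. Like Wrn, Srsf2 was low in Instigator arrays at its brightest set (-0.36, SE 0.11) and not at its 3 others, which differed from Matrigel by -0.07, 0.09 and 0.12. Clk4 was lower at both of its sets, by -0.35 (SE 0.12) and -0.53 (SE 0.18). The profiles most opposite were those of Map7d1 (r = -0.89, and -0.96 without the 2 arrays) and Dnmt1 (r = -0.86, and -0.82). Likeness was taken on log2 values with the group means left in, so these r include the low Instigator values that Wrn was chosen for. These genes were found by likeness to Wrn, so their differences are descriptions.

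Among the other members, Recql4 was most like Eme1 (r = 0.97), Mrpl34 (0.96) and Nup62 (0.96), all within the 35 highest without Instigator 4 and Matrigel 3. Blm was most like Adssl1 (r = 0.91), Cdc45 (0.91) and Dtl (0.90). Cdc45, a subunit of the replicative helicase, had r = 0.95 with Blm without the 2 arrays, the second highest of all genes. Recql at 1439047_s_at was most like Fbxo42 (r = 0.98), Bub3 (0.96) and Eif3c (0.95), but its likeness to Bub3 and Eif3c fell to 197th and 374th place without Instigator 4 and Matrigel 3, with r = 0.73 and 0.68. Recql5 was most like Ptpn1 (r = 0.94), Dennd4b (0.89) and Hbs1l (0.87), and Ptpn1 was also first without the 2 arrays (r = 0.92).

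The sorted cells are a mixture, and in such samples fewer cells of a type and less RNA per cell cannot be told apart. Against Matrigel, most markers of lymphoid and dendritic cells were lower in the Instigator arrays, as Wrn 1425074_at was. Dendritic cell markers were lower than Matrigel in 7 of 8 cases (median -0.64), and their mean per array ran from 8.48 to 9.27 in Instigator, 9.19 to 9.63 in Matrigel and 8.52 to 9.49 in Non-instigator arrays. B cell markers were lower in 6 of 7 cases (median -0.65), with array means of 8.02 to 9.15, 8.93 to 9.40 and 8.36 to 9.67. Plasma cell markers were lower in 6 of 6 (median -0.41), with 9.14 to 9.94, 9.73 to 10.11 and 9.04 to 10.32. NK cell markers were lower in 6 of 6 (median -0.24), with 8.98 to 9.75, 9.35 to 9.91 and 9.43 to 10.18, and T cell markers in 6 of 6 (median -0.20), with 7.86 to 8.76, 8.40 to 8.77 and 7.94 to 9.16.

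Neutrophil markers were higher than Matrigel in 8 of 9 cases (median 0.18), erythroid markers lower in 3 of 5 (median -0.18, and -0.11 without Instigator 4 and Matrigel 3), progenitor markers higher in 4 of 6 (median 0.09) and stromal markers higher in 4 of 8 (median 0.01). After centring, B, T, NK, plasma and dendritic cell markers were still lower in 6 of 7, 4 of 6, 5 of 6, 6 of 6 and 6 of 8 cases, and stromal markers higher in 5 of 8. On the deposited scale, Wrn 1425074_at differed by -0.09 in Non-instigator minus Matrigel. Dendritic cell markers were lower there in 8 of 8 cases (median -0.32) and B cell markers in 5 of 7 (median -0.24). T, NK and plasma cell markers were higher there in 5 of 6, 6 of 6 and 4 of 6 cases. In Instigator minus Non-instigator, where Wrn 1425074_at differed by -0.31, most of these markers were lower. NK cell markers were lower there in 6 of 6 cases (median -0.51), plasma in 6 of 6 (-0.47) and T in 6 of 6 (-0.24). B cell markers were lower in 6 of 7 (median -0.35) and dendritic cell markers in 6 of 8 (-0.27). Non-instigator 1 set the low end of the Non-instigator range in each of these lists, with Wrn at 8.88. Instigator 3 did so among the Instigator arrays, with Wrn at 8.46. The part of cell composition in the Wrn values was not tested.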

How the data were processed

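Each of the 14 arrays has 22690 deposited intensity values on a linear scale, 1 per probe set. The tools listed in the submitters' processing notes are RMA, affy and R 2.11.0, with no settings named. RMA subtracts background, equalises the arrays and combines the probes of each set into 1 value. The deposited intensity values were put on a log2 scale without further normalization, and 64 array control probe sets were left out. Total RNA was biotin-labelled with a NuGen Ovation kit, per the labels.

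Gene names came from the platform annotation, in which 20380 probe sets carry 1 symbol, 691 several and 1555 none here. All 5 members were found in the mouse reference table (GRCm38.p6). Where a gene is given 1 value, it is that of its brightest probe set on average. Groups were taken from sample titles. Group means were modelled by limma 3.58.1 (R 4.3.3) over all 14 arrays, with Benjamini-Hochberg adjustment over 22626 probe sets and calls at an adjusted p under 0.05. The fit was tested on simulated data. Correlations given with a p-value used deviations from group means and 100000 permutations. Likeness by r used log2 values with the group means left in and no permutations. The permutations ran over all arrays without regard to group and did not count the group means removed, so their p-values lean small. Named genes are all member probe sets, Kit, up to 3 genes per list by smallest p, and the genes most like each member by Pearson r (5 and the 2 most opposite for Wrn, 3 for each other member). Figures used matplotlib 3.10.9 (Python 3.11.15).

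Members, lists and tests were chosen with earlier results of these data known. Alternatives tried were a fit of only the 2 groups in question, a filter to brighter probe sets, quantile normalization, median centring, limma's trend and robust options, array weights, replicate numbers as a block, log2(intensity + 32), each array left out in turn, Instigator 4 and Matrigel 3 left out, Instigator 5 counted as Non-instigator, and averaging the sets of each gene. Other scalings of the gene lists were added after the data were seen.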

Additional observations from a re-analysis of the deposited data

Results flagged for a closer look

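In 27 sets of values (9 probe sets in 3 groups), 2 held an array far from the rest of its group, where chance gives about 1 in 20. Recql 1439047_s_at read 9.95 on Instigator 4, against 8.26 to 8.74 on the other 4 Instigator arrays. Wrn 1425982_a_at read 6.36 on Matrigel 3, against 5.79 to 5.86 on the other 3 Matrigel arrays. Instigator 4 is the array with the extreme beta-actin control signal, and Matrigel 3 the array with the highest median intensity.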

How the results depend on the processing

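In the 24 alternatives of each comparison, limma called 0 RecQ probe sets. Over all probe sets it called 0 under each of them except in Instigator minus Matrigel, where 1 was called without Instigator 4 and Matrigel 3, and leaving out 1 array at a time gave 0 to 1 (1 without Instigator 4). Wrn 1425074_at differed from Matrigel by -0.44 to -0.32 and from Non-instigator by -0.34 to -0.27 over the alternatives, and the latter had limma adjusted p of 0.316 or more. The replicate number as a block gave 0 calls, with Wrn at -0.40 from Matrigel (SE 0.10) and -0.31 from Non-instigator (SE 0.09). Same-numbered arrays deviated together only weakly (r from -0.20 to 0.27, over 0.1 in 5 of 13 pairs, median 0.05, and -0.02 for other pairs), so the numbers were not taken as pairs, and the block changed no call. The dim Wrn set 1425982_a_at moved from -0.13 to 0.04 without Instigator 4 and Matrigel 3. Of 9 member probe sets, 4 lie below the median brightness.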
